A study of Drosophila melanogaster with 18 samples.

Results

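The RNAs held in the washed pellet of wild-type Drosophila heads, the fraction named granules 2, were described by comparing its libraries with those of the tissue lysate from which the pellet was spun down. The members are the 3 wild-type granules 2 libraries and the 3 wild-type lysate libraries, 6 of the 18 libraries of the series, and each granules 2 library was set against the lysate library with the same replicate number. The series sequenced total RNA, depleted of ribosomal RNA, of heads from w1118, the wild type, and from Δmimi, a line with a CRISPR-made deletion at the locus of mimi, a long noncoding RNA. Each genotype gave lysate, granules 1 and granules 2 from 3 preparations.

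All 6 libraries came from the same genotype, w1118, whose controls and pellets alike lack function of the eye pigment transporter gene white, and from mixed adult male and female flies that were blended whole before the heads were sieved out. Heads were ground in a buffer with Triton X-100, and the homogenate was passed through a fine strainer that holds back cuticle. The flow-through is the lysate. A slow spin then removed large material, and the supernatant was split. A faster spin of one portion gave granules 1, and the pellet of the other portion was washed in PBS with Triton X-100 and spun again to give granules 2. The fraction is therefore defined by sedimentation and by resistance to a detergent wash, not by a protein marker, and it pools every cell type of the head. The pellet and the lysate of a preparation came from the same heads. Between preparations or genotypes, fewer cells of a type and less RNA per cell cannot be told apart in such bulk samples.

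RNA granules are assemblies of RNA and RNA-binding proteins without a membrane, and in neurons they are known for the storage and transport of messenger RNAs. mimi RNA and the double-stranded RNA-binding protein Staufen form granules in fly neurons together with RBP9 and FNE, relatives of the neuronal protein ELAV.

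The lysate libraries held 5598380 to 7798946 counts and the granules 2 libraries 3635256 to 5224918 counts. The 10 most abundant genes took 9.95 to 11.1% of the counts in lysate and 7.71 to 8.20% in granules 2. Libraries of the same group differed by more than sampling noise, and preparation 2 stood apart in both groups: the chi-square per degree of freedom was 48.8 and 35.0 for the pairs of lysate libraries that held preparation 2 against 8.69 for the other pair, and 27.3 and 21.6 against 7.04 in granules 2. The muscle markers show the difference most plainly, with a summed level of 38936 CPM (counts scaled to a common library total) in the lysate of preparation 2 against 16942 and 18570 CPM in the lysates of preparations 1 and 3. In granules 2 the same sum was 34942 CPM in preparation 2 and 14359 and 13513 CPM in the others, so the excess went with the preparation. Neuron markers (3789, 2830.5 and 3007 CPM in lysate), photoreceptor markers (48450, 36793 and 49986 CPM) and glia markers (2839, 2864 and 2266 CPM) were present in every lysate, and of the markers of other body parts, those of midgut summed to 10.1 to 24.8 CPM in any library, those of ovary to 8.67 to 26.2 CPM beside 95.1 to 123 CPM of gus, and those of testis to 9.84 to 13.8 CPM beside 81.0 to 153 CPM of bol. Every fold change below was fitted within preparations.

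Of 9582 genes with a mean normalized count above 10, 761 RNAs were enriched in granules 2 (7.94%) and 968 were depleted (10.1%), 18% in all, at an edgeR quasi-likelihood adjusted p under 0.05 and a log2 fold change beyond 0.5 in either direction. The direction was the same in all 3 preparations for 751 of the enriched and 957 of the depleted RNAs, and the 3 granules 2 values did not overlap the 3 lysate values for 1429 of the called RNAs, against 3258 of all genes tested (34%). Large changes were mostly gains: 253 RNAs rose by more than 1 on the log2 scale and 49 by more than 2, while 151 fell by more than 1 and 5 by more than 2. All levels are relative to the total of a library, so they say which RNAs took a larger or smaller share of the pellet and nothing of how much of each RNA was pelleted. With no replicate block in the fit the counts were 520 enriched and 389 depleted, and with DESeq2 they were 688 and 559.

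mimi, whose annotated gene spans 1563 bases on the plus strand of chromosome arm 3R (23983503 to 23985065, BDGP6, 1 exon, which also contains the microRNA gene mir-9381, and not necessarily the length of the RNA), stood at 1481, 946 and 1263 CPM in the lysates of preparations 1, 2 and 3. In granules 2 it stood at 2461, 2367 and 2293 CPM. Every pellet value lay above every lysate value, and the log2 fold change was 0.97 (SE 0.11, edgeR adjusted p = 1.93e-06, n = 3 preparations). In the study mimi was captured with biotinylated DNA probes, and 4 of these, 30 bases each and designed against the RNA, are shown because they are the sequences by which the study picked this granule RNA out of head extracts:
mimi probe 1: ttcgtgtagtgagccagggatggaccgagt
mimi probe 2: tttcgtgtttgtgttatgatcaaactccca
mimi probe 3: atgatagtgggtcgaatcgtaaagcaaaat
mimi probe 4: aatacattcaaaaaacataacgcaagggtg
The study also notes that the 3′UTR of the adjacent gene CG31140 reaches into this locus, so a part of the reads counted for mimi may belong to that gene.

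The largest gains lay outside the neuronal lists. Excluding genes with a mean count under 50, the first was CG13071, a short coding gene of 434 exonic bases, at 33.9, 38.8 and 38.2 CPM in lysate and 356, 393 and 399 CPM in granules 2 (log2 fold change 3.37, SE 0.09, edgeR adjusted p = 1.24e-14). CG32237 rose by 3.26 (SE 0.22), from 1.91, 2.13 and 1.69 to 17.8, 16.9 and 21.9 CPM. Crys, which encodes a crystallin of the corneal lens, stood at 66.4, 102 and 61.1 CPM against 585, 719 and 718 CPM, a log2 fold change of 3.16 (SE 0.12). CG5653 and CG13046 rose by 3.10 and 3.05 on the log2 scale. Neither CG13071 nor Crys had lysate and pellet values that came near each other in any preparation.

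The genes of eye pigment synthesis and transport, a list drawn up after these values were seen, held many of the next RNAs. The fly eye owes its colour to red pteridines and brown ommochromes, both made in the pigment cells that surround the photoreceptors. Of 15 listed genes 14 were tested, 10 were enriched and none was depleted, beside 7.94% and 10.1% of all genes. The median log2 fold change of the list was 1.09 beside −0.03 over all genes tested. The summed share of the counts was 0.198% ± 0.016 in lysate and 0.932% ± 0.091 in granules 2 (SD, n = 3).

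Of the pteridine genes, Pu, GTP cyclohydrolase I, the entry enzyme of the branch, stood at 676, 933 and 642 CPM in lysate and at 4799, 4497 and 5198 CPM in granules 2 (log2 fold change 2.70, SE 0.13, edgeR adjusted p = 1.96e-11). pr, the pyruvoyltetrahydropterin synthase that acts next, went from 162, 194 and 161 to 1112, 1007 and 1218 CPM (2.69, SE 0.11), and se, which makes the pyrimidodiazepine precursor of the red drosopterins, from 208, 268 and 224 to 1779, 1943 and 1977 CPM (3.03, SE 0.10). For each of the 3 enzymes the lowest pellet value was several times the highest lysate value. Hn, phenylalanine hydroxylase, which uses a pterin cofactor, rose by 1.06 (SE 0.09), and ry, xanthine dehydrogenase, by 0.52 (SE 0.09, adjusted p = 0.000151). cl, a thioredoxin-like protein of drosopterin synthesis, had a log2 fold change of 0.48 (SE 0.09, adjusted p = 0.000327) and so fell just short of the size needed for a call. se overlaps GstO2 and pr overlaps bwa on the opposite strand, and how the counting treated strand is not given in the sources used here.

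Among the ommochrome genes, cn, kynurenine 3-monooxygenase, rose from 0.82, 1.33 and 0.338 to 7.03, 4.99 and 7.04 CPM (log2 fold change 2.83, SE 0.38), at a level far under the pteridine enzymes. cd, the peroxidase-like cardinal protein, rose by 0.64 (SE 0.13) and kar, a transporter-like protein of eye colour, by 1.11 (SE 0.09). v, tryptophan dioxygenase, which opens the pathway, stood at 14.8, 31.5 and 25.4 CPM in lysate and 17.2, 22.9 and 19.8 CPM in granules 2, overlapping groups with a log2 fold change of −0.23 (SE 0.14, adjusted p = 0.234). The pigment precursor transporters st and bw rose by 1.49 (SE 0.09) and 1.76 (SE 0.09), st from 63.9, 72.9 and 67.5 to 189, 177 and 212 CPM. Their partner white had at most 1 count in any of the 6 libraries and was not tested. None of the 8 genes of pigment granule biogenesis, which encode vesicle trafficking proteins rather than pigment enzymes, was called in either direction, and their median log2 fold change was 0.10.

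Retinoid genes, which supply the chromophore of the opsins, rose in part. Of 5 listed genes 3 were enriched: santa-maria, a scavenger receptor for carotenoid uptake, from 225, 235 and 224 to 749.9, 682 and 888 CPM (log2 fold change 1.75, SE 0.10), ninaB, the carotenoid cleavage oxygenase, by 0.78 (SE 0.09), and Pdh, a retinol dehydrogenase, by 0.75 (SE 0.11). laza, a lipid phosphate phosphatase of phototransduction, rose by 1.99 (SE 0.09), from 192, 205 and 188 to 742, 745 and 850.0 CPM. The opsins went the other way. All 6 rhodopsin genes had a negative log2 fold change, 3 were depleted, and the median was −0.58. The depleted opsins numbered 5 without preparation 1 or without preparation 3. Over all genes tested 7.94% rose and 10.1% fell, and 4435 of 9582 had a positive log2 fold change. The retinoid and rhodopsin lists were drawn up after these values were seen, so their contrast is a description and not a test.

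Rh4, an ultraviolet opsin of the inner photoreceptors, stood at 729, 618 and 706 CPM in lysate and 325, 207 and 279 CPM in granules 2 (log2 fold change −1.36, SE 0.09, edgeR adjusted p = 2.87e-09). Rh3, the other ultraviolet opsin, fell by 0.96 (SE 0.09). ninaE, the opsin of the outer photoreceptors, went from 22332, 11842 and 22864 to 16277, 6376 and 14077 CPM, which overlap between groups because preparation 2 was low in both, and its log2 fold change within preparations was −0.68 (SE 0.12). rtp, a retinophilin expressed in photoreceptors, fell by 1.03 (SE 0.09). Arr2, the major arrestin, did not follow the opsins: its log2 fold change was −0.13 (SE 0.11, adjusted p = 0.412). Of 40 phototransduction genes, 4 rose and 7 fell, beside 7.94% and 10.1% of all genes. This list shares members with the rhodopsin list, Rh4 among them, so the depleted counts of the lists are not separate results. The photoreceptor markers other than ninaE summed to 26118, 24951 and 27122 CPM in lysate and 28190, 23708 and 26877 CPM in granules 2, overlapping groups.

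**Figure D1:**
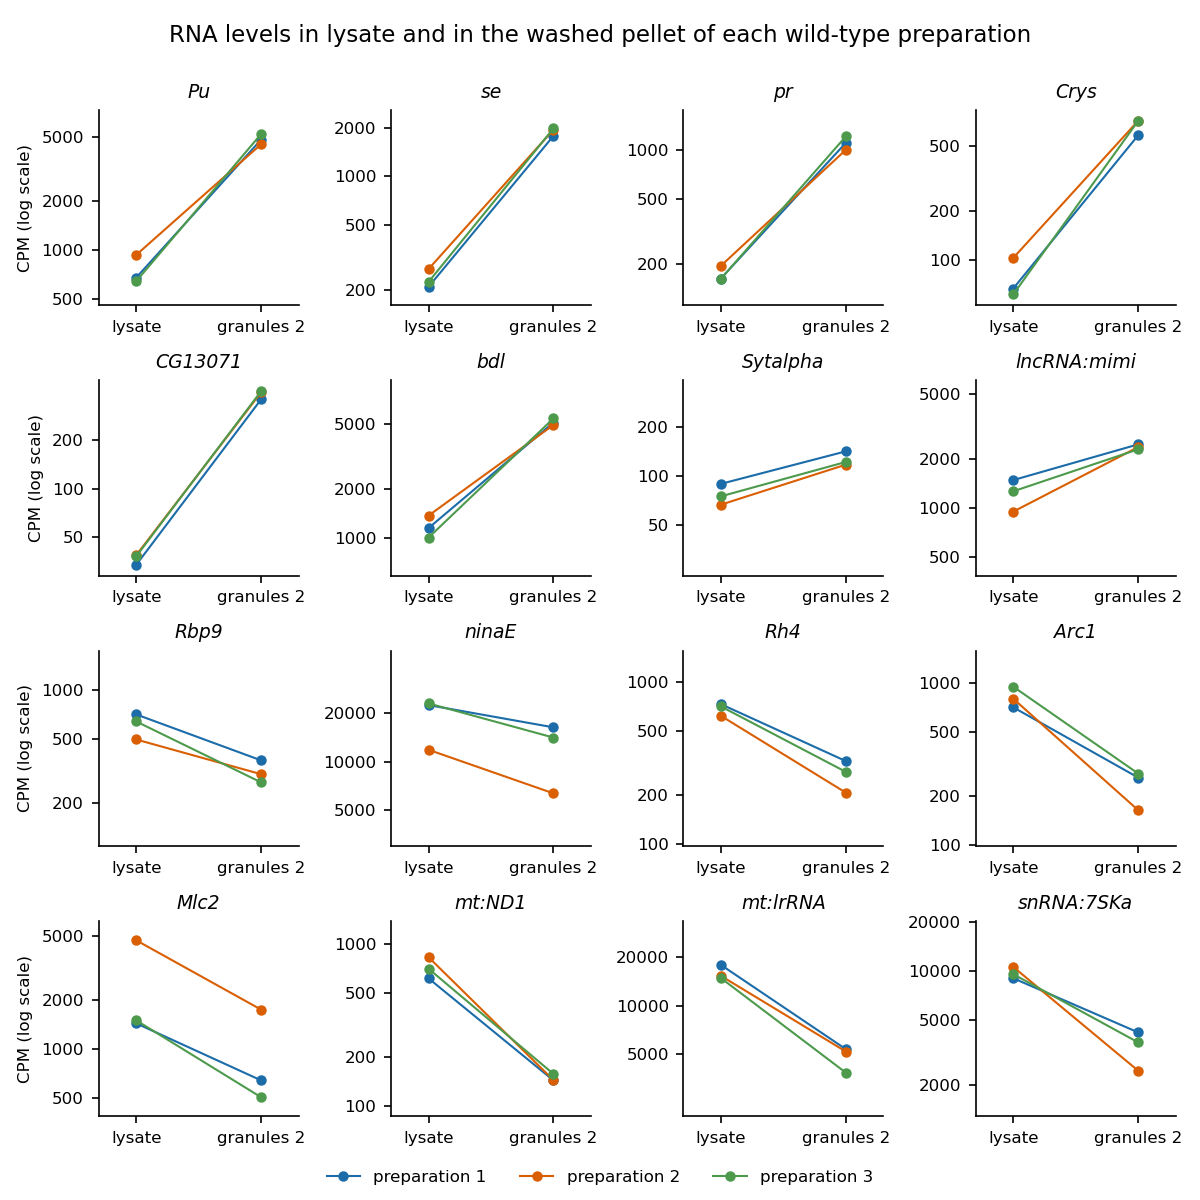
Levels of 16 RNAs in the 6 wild-type libraries, in CPM on a log axis, with lysate left and granules 2 right in each panel and one line for each preparation. Lines for Pu, se, pr, Crys, CG13071 and bdl rise steeply and almost in parallel, those for mimi and Sytalpha rise less, and those for mt:ND1, mt:lrRNA, snRNA:7SKa, Arc1, Rh4 and Mlc2 fall in all 3 preparations.

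Lens and cuticle genes formed a second enriched group. Over all genes tested 7.94% rose and 10.1% fell. Of 11 genes of the corneal lens and related cuticle 9 were tested, 6 rose and 1 fell, with a median log2 fold change of 1.57, which was 2.38 without preparation 2. The Vajk genes, a family of secreted cuticle proteins, rose together, Vajk4 from 16.7, 18.7 and 18.8 to 125, 146 and 143 CPM (2.93, SE 0.09) and Vajk1 by 2.34 (SE 0.11). Cpr72Ec, a chitin-binding lens protein, rose from 952, 694 and 1190.2 to 2713, 2539 and 2988 CPM (1.57, SE 0.11). The exception was retinin, another lens protein, at 1298, 2148 and 769 CPM in lysate and 742, 1053 and 506 CPM in granules 2. Its groups overlapped because the preparations differed widely, and within preparations it fell by 0.82 (SE 0.10). Among 124 cuticle protein genes of the Cpr, Twdl and Lcp families 30 were tested, 13 rose and 1 fell, with a median of 0.59. Cpr72Ec stands in this list and in the lens list, so the counts are not fully separate. Cpr49Ag rose from 126, 135 and 103 to 752, 657 and 799 CPM (2.60, SE 0.11) and Cpr62Bb by 2.26 (SE 0.13). The medians within preparations were 0.84, 0.17 and 0.78, so the gain of the cuticle list was smallest in preparation 2.

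Messages for cell-surface and matrix proteins were mostly higher in the pellet. All 34 genes of adherens junctions, septate junctions and other cell adhesion had a positive log2 fold change, 14 were enriched and none was depleted (median 0.44). Over all 9582 genes tested 4435 had a positive log2 fold change, 7.94% were enriched and 10.1% depleted. rst, an immunoglobulin-family protein that sorts the pigment cell lattice of the eye, rose from 41.7, 32.8 and 36 to 122, 102 and 108 CPM (1.59, SE 0.09). The cadherins Cad74A and Cad87A rose by 1.51 (SE 0.10) and 1.05 (SE 0.08), and Dscam2, a homophilic receptor of neurites, by 0.92 (SE 0.08). bdl, an immunoglobulin-family receptor that is not in the list, was the most abundant of this kind, at 1146, 1367 and 1001 CPM in lysate and 5128, 4958 and 5439 CPM in granules 2 (2.15, SE 0.12, edgeR adjusted p = 9.52e-11).

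Of 20 extracellular matrix genes 8 were enriched and none was depleted (median 0.42), beside 7.94% and 10.1% of all genes. dlp, a glypican, rose by 1.50 (SE 0.08), LanB2, the laminin gamma chain, by 0.96 (SE 0.09), Ppn, the matrix protein papilin, by 0.81 (SE 0.08), and Timp, an inhibitor of matrix metalloproteinases, by 0.77 (SE 0.08). dpy, a giant protein that links cuticle and epidermis, rose from 2162, 3357 and 2288 to 3597, 5763 and 3363 CPM (0.69, SE 0.10). Of 33 genes of motors and cytoskeleton 7 rose (21.2%) and 1 fell (median 0.23). These messages are long, with a median of 5498 exonic bases. Among all protein-coding genes of 4000 to 8000 bases 10.3% were enriched, with a median of 0.14. kst, the heavy beta-spectrin, rose by 0.91 (SE 0.09), shot, a spectraplakin that joins actin and microtubules, by 0.65 (SE 0.10), didum, a myosin V, by 0.76 (SE 0.09), and Dhc64C, the heavy chain of cytoplasmic dynein, by 0.71 (SE 0.09). egl, which loads RNAs onto dynein, went from 158, 177 and 157 to 250.2, 253 and 254 CPM (0.62, SE 0.08). When exon length was corrected for, 8 adhesion genes, 4 matrix genes and 2 of the motor and cytoskeleton genes were enriched, and the medians were 0.14, 0.09 and 0.03.

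Haemolymph and detoxification genes gained less. Over all genes tested 7.94% rose and 10.1% fell. Of 23 genes of fat body and haemolymph 5 rose and 1 fell (median 0.15), among them apolpp, the precursor of the lipid carrier lipophorin (0.52, SE 0.11), and Apoltp, the lipid transfer particle (0.79, SE 0.09). The fat body markers other than apolpp summed to 1209.6, 3373 and 980.4 CPM in lysate and 1477, 3187 and 948 CPM in granules 2, overlapping groups. Of 65 cytochrome P450 genes tested 12 rose and 1, Cyp6a19, fell (median 0.20), and Cyp4e1 went from 26.4, 33.6 and 27.8 to 58.2, 70.5 and 74.2 CPM (1.20, SE 0.10). NimA, a Nimrod receptor, rose by 2.73 (SE 0.13). The haemocyte markers rose in sum from 195, 256 and 251 to 338, 446 and 452 CPM, but of 6 tested only 1 was enriched and none was depleted. Their median log2 fold change was 0.18, with −0.04 as the median within preparation 2. pkm, at 1389.7, 1728 and 1559 CPM in lysate and 4507, 4374 and 5364 CPM in granules 2 (1.61, SE 0.11), and CG9674, at 2079, 1944 and 2032 CPM against 3526, 3652 and 3739 CPM (0.85, SE 0.10), were among the 10 enriched RNAs highest in the pellet.

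**Figure D2:**
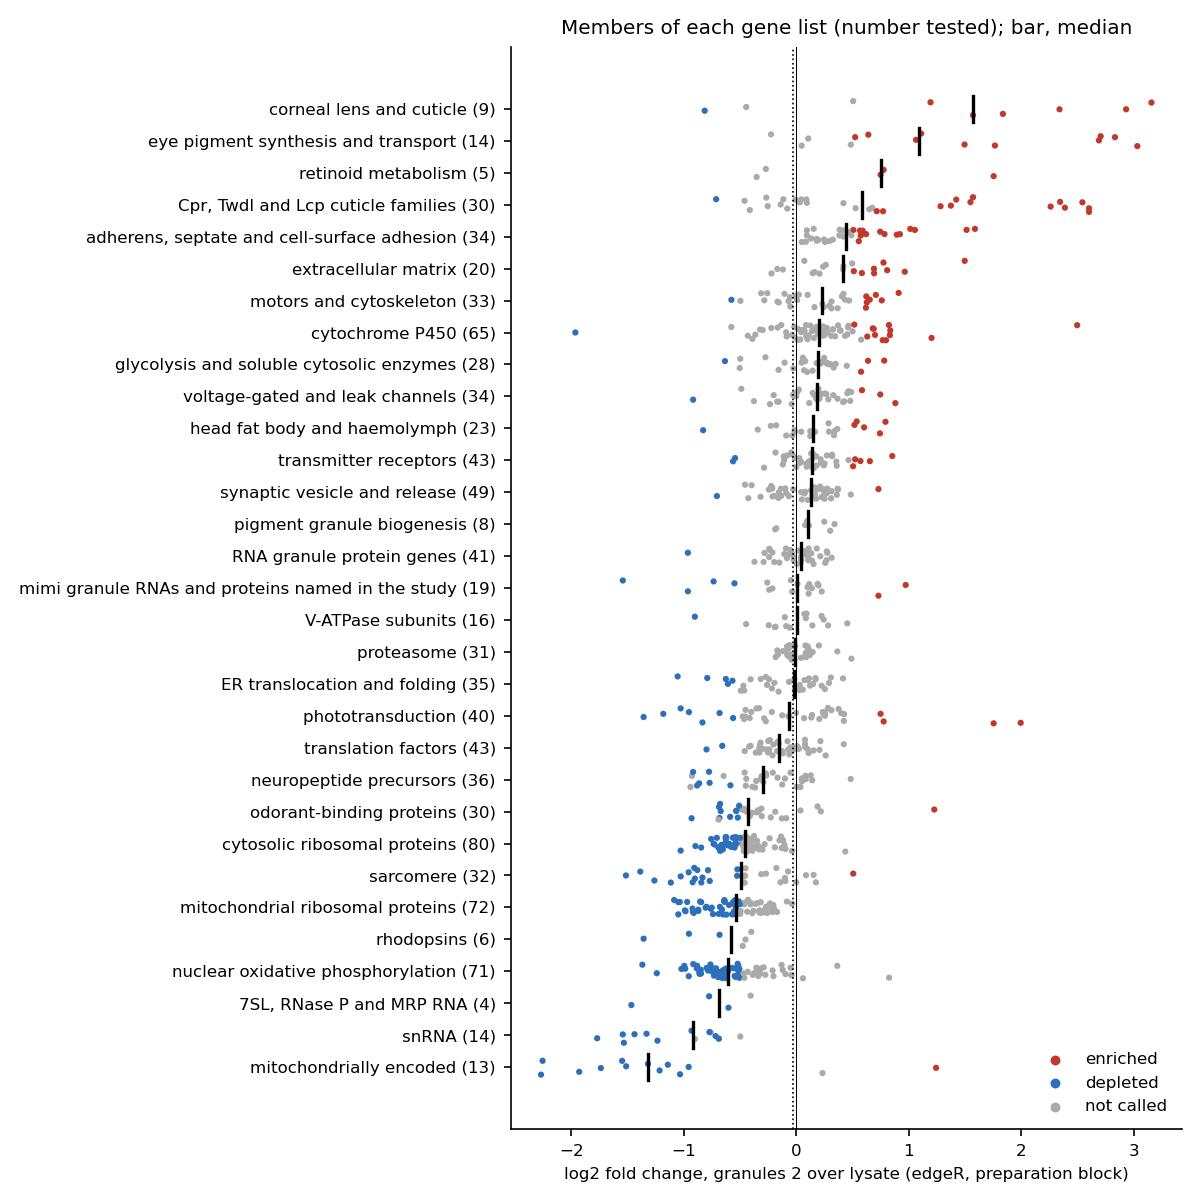
Log2 fold change of granules 2 against lysate for every tested member of each gene list, one point a gene, coloured by call, with a bar at the median of the list and a dotted line at the median over all genes tested. Pigment, lens and cuticle genes lie to the right of the line, mitochondrial-encoded RNAs, spliceosomal snRNAs and genes of respiration and ribosomes to the left, and the RNA granule protein genes around it.

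Neuronal messages moved little as a class. Of 49 tested synaptic vesicle genes 1 rose and 1 fell (median 0.13), of 34 ion channel genes 3 rose and 1 fell (median 0.19), and of 43 tested receptor genes 5 rose and 2 fell (median 0.14), beside 7.94% of all genes that rose and 10.1% that fell. Without preparation 2 the counts were 1 and 4, 2 and 0, and 3 and 3, and without preparation 1 they were 2 and 2, 7 and 1, and 6 and 0. Within these lists, Ih, the hyperpolarization-activated channel, rose from 318, 249 and 248 to 570.2, 464 and 463 CPM (0.88, SE 0.08), 5-HT2A, a serotonin receptor, from 232, 174 and 203 to 317, 273 and 309.6 CPM (0.57, SE 0.08), and Dop2R, a dopamine receptor, from 413, 342 and 334 to 697, 716 and 556 CPM (0.85, SE 0.09). Each had pellet values above all lysate values. The 6 tested neuron markers gave no call, and they summed to 4276, 3758 and 2871 CPM in granules 2.

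A list of 19 genes was drawn from RNAs and proteins that the study names around mimi granules. It is a selection, far smaller than the study's full set of granule mRNAs and proteins, and it also holds the neighbouring gene CG31140. Atox1, Shab, Usp14 and BicD were placed in granules as proteins, so the level of their messages does not measure that placement. The list is not independent evidence because some members were picked from these libraries. Of the 19 genes 2 rose (10.5%) and 4 fell (21.1%), beside 7.94% and 10.1% of all genes, and the median log2 fold change was 0.01. mimi and Sytalpha, a synaptotagmin gene, were the enriched ones. Sytalpha stood at 89.5, 66.6 and 75 CPM in lysate and 142, 118 and 122 CPM in granules 2 (0.73, SE 0.08, edgeR adjusted p = 1.59e-06), with no overlap, and it shares sequence on the opposite strand with CG6870. The message of Rbp9, whose protein binds mimi, went the opposite way, from 705, 494 and 638 to 367, 302 and 268 CPM (−0.96, SE 0.10, adjusted p = 5.31e-07). Atox1 fell by 0.55 (SE 0.10). RpL32 fell by 0.74 (SE 0.10), and the snRNA of the list, described below, fell as well. Both of these stand in the list as comparison RNAs that are not named as granule members. The messages for the granule proteins Staufen and FNE gave −0.24 for stau (SE 0.09, adjusted p = 0.0377) and −0.21 for fne (SE 0.12, adjusted p = 0.166), under the size for a call. More widely, of 41 tested genes that encode proteins of RNA granules, Rbp9 alone was called and none rose, and their median was 0.04.

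Secreted neuropeptides and odorant-binding proteins, both short messages, leaned to the lysate. Of 36 tested neuropeptide genes none rose and 6 fell (16.7%, median −0.30), beside 7.94% and 10.1% of all genes. Their median exonic length was 1249 bases. Among all protein-coding genes of 1000 to 2000 bases 9.85% were depleted. Pdf, the circadian neuropeptide, went from 45.1, 26.3 and 43 to 28.3, 12.3 and 20 CPM (−0.92, SE 0.13), Crz, corazonin, fell by 0.86 (SE 0.18) and Ilp2, an insulin-like peptide, by 0.77 (SE 0.13). Without the replicate block none of the neuropeptide genes was called, and with the correction for exon length 1 was. Of 30 tested odorant-binding protein genes 1 rose and 10 fell (median −0.43), Obp19a from 67.9, 55.4 and 56.7 to 43.6, 30.8 and 38.7 CPM (−0.68, SE 0.10), while the neighbouring gene Obp19c rose from 15.6, 16.4 and 10.8 to 35.9, 29.3 and 36.3 CPM (1.23, SE 0.15). The depleted count of this list was 2 with no block, 3 without preparation 2 and 0 with the length correction. In the main fit it was 33.3% of the list, whose median exonic length was 626.5 bases. Among all protein-coding genes of 500 to 1000 bases 35.0% were depleted.

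RNAs made in mitochondria were the most depleted class. Of 37 mitochondrial-encoded genes 13 were tested, 11 fell and 1 rose, beside 10.1% and 7.94% of all genes. Their median log2 fold change was −1.32, and their share of the counts was 4.02% ± 0.249 in lysate and 1.38% ± 0.120 in granules 2 (SD, n = 3). mt:ND1, a subunit of respiratory complex I, stood at 614, 829.7 and 704 CPM in lysate and 144, 145 and 158 CPM in granules 2 (−2.26, SE 0.10, edgeR adjusted p = 6.67e-12). mt:lrRNA, the large mitochondrial ribosomal RNA, went from 17822, 15256 and 14792 to 5387, 5209 and 3858 CPM (−1.74, SE 0.12). The small one, mt:srRNA, fell by 2.27 (SE 0.14), mt:Cyt-b by 1.55 (SE 0.10) and mt:CoI, from 11503, 11526 and 11040.4 to 4758, 4811 and 4107 CPM, by 1.32 (SE 0.11). No pellet value of these RNAs reached the lowest lysate value. The 2 exceptions, named after their values were seen, were mt:tRNA:Tyr-GTA, a transfer RNA gene at 1.64, 1.6 and 2.71 CPM in lysate and 3.52, 4.58 and 5.96 CPM in granules 2 (1.24, SE 0.30, adjusted p = 0.00361), and mt:ND2 (0.23, SE 0.17, adjusted p = 0.294).

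Nuclear messages for mitochondria and ribosomes fell by less. Of 71 tested genes of oxidative phosphorylation none rose and 47 fell (median −0.61), beside 7.94% and 10.1% of all genes. ATPsynE, a subunit of the ATP synthase, went from 165, 279.8 and 156 to 105, 128 and 80.2 CPM (−0.92, SE 0.09), and ox and UQCR-6.4, both of complex III, fell by 1.24 (SE 0.09) and 1.02 (SE 0.10). Of 72 tested mitochondrial ribosomal protein genes 41 fell and none rose (median −0.54), with mRpS33 at 15, 20.7 and 15.1 CPM against 7.81, 6.87 and 9.48 CPM (−1.09, SE 0.18). Of 80 tested cytosolic ribosomal protein genes 28 fell, none rose and 1 had a positive log2 fold change (median −0.46). RpL41 fell from 491, 542 and 568 to 341, 274 and 334 CPM (−0.76, SE 0.09). The cytosolic ribosomal medians within preparations were −0.24, −0.73 and −0.43, and the respiration medians −0.36, −0.84 and −0.54, so both lists fell furthest in preparation 2.

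The counts of these lists depend on the fit more than their direction does. With no replicate block the depleted genes numbered 6 for oxidative phosphorylation, 22 for mitochondrial ribosomal and 20 for cytosolic ribosomal proteins. With the correction for exon length they numbered 12, 10 and 7. Leaving out preparation 2 gave 31, 32 and 12, and leaving out preparation 1 gave 49, 39 and 59. The length-corrected medians were −0.29, −0.24 and −0.21. Translation factor messages, by contrast, gave 2 depleted and no enriched genes of 43 tested (median −0.16), one of them eEF1alpha2, an elongation factor (−0.80, SE 0.09). Of 35 genes of endoplasmic reticulum translocation and folding 5 fell (14.3%) and none rose (median −0.02), beside 10.1% and 7.94% of all genes. In this list 8 fell without preparation 1 and 3 without preparation 2. Sec61gamma, a small subunit of the translocation channel, stood at −1.06 (SE 0.15).

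Muscle messages were mostly lower in the pellet. Of 32 sarcomere genes 16 fell and 1 rose (median −0.50), beside 10.1% and 7.94% of all genes. Among those that fell were messages for troponin C, tropomyosin and the myosin light chains. Mlc2, the regulatory light chain, went from 1441, 4686 and 1503 to 641, 1749.9 and 504 CPM, groups that overlap only through preparation 2, with a log2 fold change within preparations of −1.39 (SE 0.10). TpnC73F, a troponin C, fell from 50.1, 89.1 and 50.1 to 21.1, 25.4 and 18.7 CPM (−1.52, SE 0.12), and Argk1, arginine kinase, by 0.64 (SE 0.10). Msp300, a giant nesprin that anchors nuclei, was the 1 that rose, from 6387, 6568 and 7306 to 9816, 9598 and 9298 CPM (0.51, SE 0.11, adjusted p = 0.00123). Its log2 fold change was −0.05 with the correction for exon length. With no replicate block 1 sarcomere gene was depleted. All 9 tested muscle markers are members of this list, so their lower sum in the pellet of each preparation is the same result.

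Arc1, whose protein forms virus-like capsids that carry RNA, and the immune peptides of the Bomanin family were among the 10 largest losses. Arc1 stood at 709, 801 and 949.8 CPM in lysate and 261, 164 and 277 CPM in granules 2 (−1.83, SE 0.12, edgeR adjusted p = 1.54e-09), with no overlap. BomS6 and BomS5 fell by 1.77 (SE 0.11) and 1.67 (SE 0.14).

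Noncoding RNAs went both ways. Over all genes tested 7.94% rose and 10.1% fell. Of 14 tested spliceosomal and 7SK snRNA genes 10 fell and none rose (median −0.92), and their share of the counts was 1.155% ± 0.040 in lysate and 0.416% ± 0.099 in granules 2. snRNA:7SKa, which holds the transcription elongation kinase P-TEFb inactive, went from 9052, 10638 and 9591 to 4194, 2435 and 3639.5 CPM (−1.54, SE 0.15). The minor spliceosome RNAs snRNA:U4atac and snRNA:U12 fell by 1.77 (SE 0.16) and 1.24 (SE 0.10). RNaseP:RNA, the catalytic RNA that trims tRNA precursors, fell by 1.47 (SE 0.14) and RNaseMRP:RNA by 0.78 (SE 0.12). Paralogous snRNA genes share sequence, so their reads may be split among copies.

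Small nucleolar RNAs, which guide modification of ribosomal RNA, were mainly gained: of 108 tested 42 rose and 4 fell (median 0.46), beside 7.94% and 10.1% of all genes. snoRNA:Psi28S-3436a went from 39.8, 44.3 and 51.1 to 72.9, 112 and 91 CPM (1.02, SE 0.10), and at the other end snoRNA:Psi28S-2566 went from 191, 287 and 210.0 to 90.3, 134 and 63.9 CPM (−1.27, SE 0.11). With no replicate block 7 snoRNAs were enriched, and without preparation 2 there were 25. Many of these genes lie in introns of other genes, and reads of the host RNA cannot be told apart from theirs here.

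Of 120 tested long noncoding RNAs 11 rose and 22 fell (median −0.13), beside 7.94% and 10.1% of all genes. With no replicate block and with DESeq2 3 rose and 8 fell, and without preparation 1 there were 6 and 15. lncRNA:Hsromega, the RNA of nuclear omega speckles, rose from 1722, 1346 and 1709 to 3917, 5643 and 2519.7 CPM (1.27, SE 0.18). lncRNA:roX2, which coats the male X chromosome, fell from 416, 492 and 459.9 to 199, 186 and 181 CPM (−1.27, SE 0.09), and lncRNA:noe from 5907, 4797 and 4842 to 2223, 2546 and 1561 CPM (−1.32, SE 0.12). RNAs known from the nucleus were thus found on both sides.

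Per kilobase of exon, the RNAs at the top of the washed pellet were still the abundant ones of the head. Arr2 had 8247 CPM per kilobase in granules 2 and 8903 in lysate, ninaE 7710 and 11973, and snRNA:7SKa 7709 and 21983. Pdh had 6393 CPM per kilobase in granules 2 against 3829 in lysate. se climbed from rank 259 in lysate to rank 11, with 2303 CPM per kilobase, and Pu from rank 211 to rank 13, with 2245 CPM per kilobase, while mimi, over its annotated length, had 1519 CPM per kilobase in granules 2 and 787 in lysate.

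The length of an RNA went with its place. Among protein-coding genes with up to 500 exonic bases 68.1% were depleted and 6.25% enriched, among those of 1000 to 2000 bases 9.85% and 5.23%, and among those above 8000 bases 1.54% and 16.7%. The median log2 fold change went from −0.77 in the shortest class to 0.25 in the longest. Enriched RNAs had a median exonic length of 2888 bases and depleted ones 953, beside 2201 over all tested protein-coding genes, and the coding part differed most (1897.5 and 549 bases). Across 9041 genes, which share libraries and are not independent replicates, Spearman's rho of the log2 fold change with exonic length was 0.50, with coding length 0.54 and with 3′UTR length 0.19, and with exonic length it was 0.37, 0.57 and 0.34 in preparations 1, 2 and 3. Some RNAs with large gains did not follow it. CG13071, se and pr have 434, 825 and 1073 exonic bases and lie far above their length class. Other RNAs with large gains were longer, with 2948 exonic bases for CG32237, 2877 for NimA and 2261 for Crys.

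**Figure D3:**
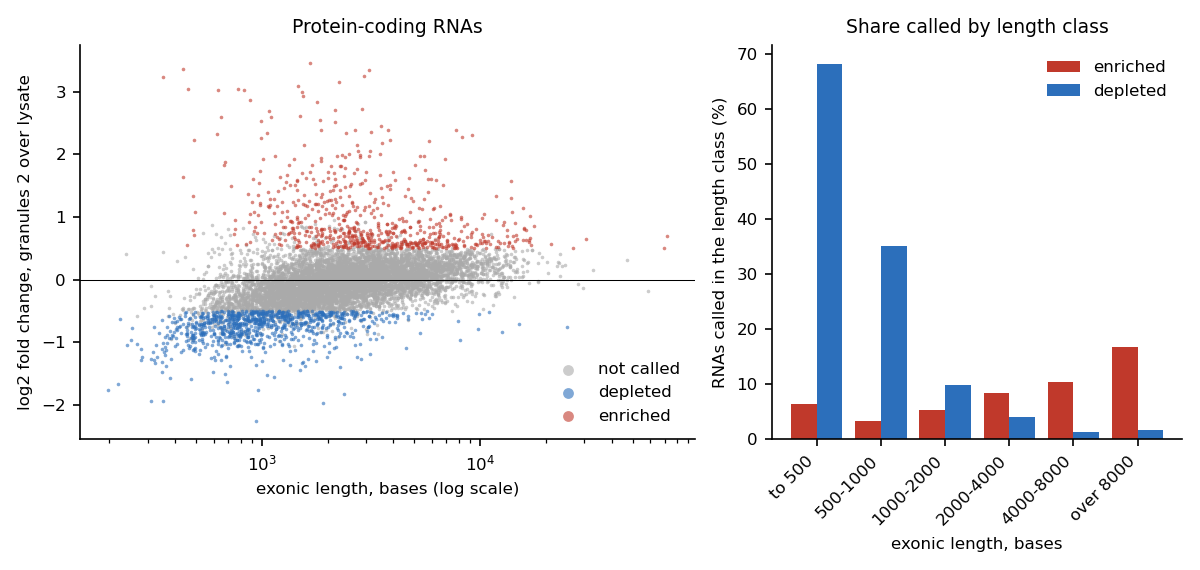
Left, log2 fold change of granules 2 against lysate for each tested protein-coding gene plotted over exonic length in bases on a log axis, with enriched and depleted RNAs coloured. Right, percent of genes enriched and depleted in 6 length classes, where the depleted share is 68.1% in the shortest class and 1.54% in the longest, and the enriched share is 16.7% in the longest.

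The wash was assessed by setting granules 2 against the unwashed granules 1 of the same preparations. No RNA of 9540 tested was called in either direction by edgeR (0% called, 331 with an unadjusted p under 0.05, lowest adjusted p 0.99987), and DESeq2 called none either (16 with an unadjusted p under 0.05). The median SE of the log2 fold change was 0.115, the same as in the comparison with lysate, and 83.2% of the genes had a log2 fold change within 0.2 of 0. The fold change from granules 1 to granules 2 was −0.07 for mimi (SE 0.07), −0.03 for Pu (SE 0.06), −0.13 for Sytalpha (SE 0.08), 0.31 for Crys (SE 0.13) and 0.41 for mt:lrRNA (SE 0.14), each with an edgeR adjusted p of 0.9999. Without preparation 1, 18 RNAs were called higher in the washed pellet, mt:lrRNA and Crys among them, and with no minimum on the mean count 7 were called higher and 1 lower. A missing call does not show that the fractions are alike. Against the same lysates, granules 1 had 711 enriched RNAs (7.3%) and 920 depleted ones (9.45%) of 9740 tested, and as the controls are shared no overlap of the calls is drawn.

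**Figure D4:**
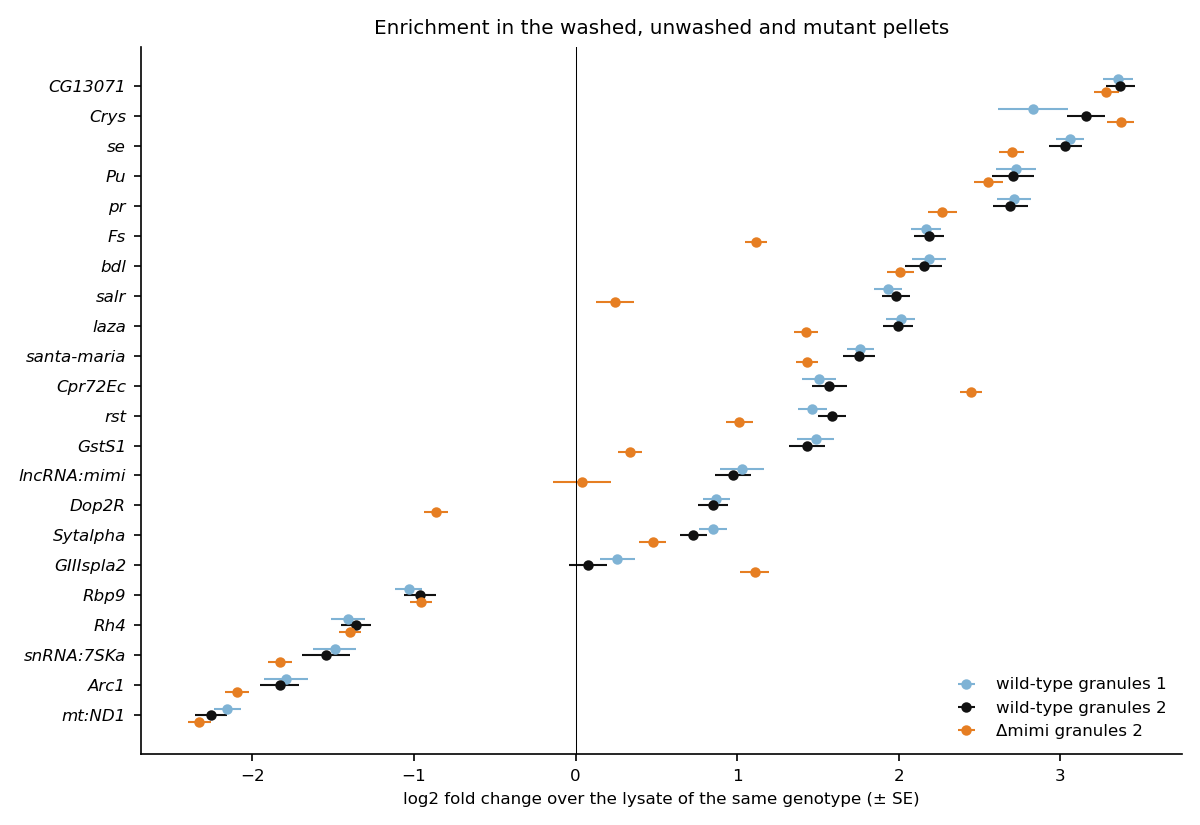
Log2 fold change against lysate with its SE for 22 RNAs in wild-type granules 1, wild-type granules 2 and Δmimi granules 2. From 3.37 for CG13071 to −2.26 for mt:ND1 in granules 2, both wild-type values of a gene lie close to each other, with the widest gap for Crys. The Δmimi values lie apart from them for Dop2R, salr, Fs, GstS1, Cpr72Ec, GIIIspla2 and rst, each called in the genotype comparison. The Δmimi value of mimi also lies apart, but it rests on few counts and that difference was not called.

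Whether the contents of the washed pellet differed without mimi was tested as the interaction of genotype and fraction over the 12 granules 2 and lysate libraries. Of 9717 genes tested 45 had a different enrichment (0.463%), 41 with a higher log2 fold change in wild type (0.422%) and 4 with a lower one (0.0412%). Of the 41, 37 were enriched in wild-type granules 2, beside 7.94% of all genes in that comparison. The same wild-type libraries enter both tests, so this overlap is partly given by the design and is not separate evidence. Without the replicate block edgeR called no genotype difference (229 genes with an unadjusted p under 0.05). Leaving out preparation 1 gave 10 higher and 2 lower, preparation 2 gave 67 and 11, and preparation 3 gave 3 and 1, so these counts rest on which preparations enter.

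Dop2R had the clearest difference. In CPM scaled over all 18 libraries it stood at 416, 342 and 339 in wild-type lysate and 691, 721 and 562 in wild-type granules 2, but at 399.5, 277 and 248 in Δmimi lysate and 191, 188 and 126 in Δmimi granules 2. It rose in the wild-type pellet and was lower than lysate in the mutant pellet, a log2 difference of 1.71 (SE 0.13, edgeR adjusted p = 6.51e-07). salr, a zinc finger gene of the spalt family, had a log2 fold change of 1.98 in wild type and 0.24 in Δmimi (difference 1.73, SE 0.16), and Fs, follistatin, 2.19 and 1.12 (difference 1.06, SE 0.11). GstS1, a glutathione transferase, had 1.43 and 0.34 (difference 1.08, SE 0.15). In the other direction stood GIIIspla2, a secreted phospholipase gene, with 0.08 in wild type and 1.11 in Δmimi, and Cpr72Ec with 1.57 and 2.45.

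mimi itself was counted at 6.59 to 20.1 CPM in the Δmimi granules 2 libraries, from 30 to 113 counts, beside 2321 to 2441 CPM in wild type on the same scale. The deletion is thus plain in the counts, and the interaction for mimi (0.92, adjusted p = 0.156) rests on those few mutant counts. The interaction for Sytalpha was 0.24 (adjusted p = 0.75). Pigment genes were enriched in both genotypes: Pu had a log2 fold change of 2.70 in wild type and 2.56 in Δmimi, and of 14 tested pigment genes 10 rose in each. In Δmimi granules 2, 617 RNAs were enriched (6.32%) and 831 depleted (8.51%) of 9762 tested.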

How the data were processed

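The authors ran the RNA-seq module of snakePipes with the Ensembl annotation, per the study's methods, and the submitters' processing notes name STAR, featureCounts and the build dm6. The deposited values are these counts for 17558 genes in 18 libraries, and no normalization had been applied. Whether counting used strand is not given in the sources used here. Of the gene identifiers 17252 matched the BDGP6 annotation used for names, lengths and positions, and 306 did not. Probe sequences come from the oligonucleotide list of the study.

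Counts of the 6 libraries were scaled by TMM, genes with a mean normalized count above 10 were kept, and granules 2 was compared with lysate by edgeR 4.0.16 in R 4.3.3 (glmQLFit and glmQLFTest) with preparation as a block and Benjamini-Hochberg adjustment over all genes tested. The study tested with DESeq2, and DESeq2 1.42.0 was run as an alternative. The size threshold is the one the study applied between genotypes, as its rule for granule RNAs combines both genotypes. Same-numbered libraries deviated together (correlations 0.66, 0.72 and 0.45 for preparations 1, 2 and 3), so the numbers pair the libraries. CPM are scaled by TMM. The SE of a log2 fold change was taken as its absolute value over the root of edgeR's F.

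Lists and members were chosen with earlier results of these data known, and the pigment, rhodopsin and retinoid lists after the values of this comparison were seen. The named genes are mimi and the RNAs and proteins named in the study, the 10 largest gains and losses with a mean count of at least 50, the 10 most abundant called RNAs in each direction, the lowest p values in each list, the top RNAs per kilobase and the calls of the wash and genotype comparisons by p, less some left out for length. As preparation is a block, the p-values measure the spread of the within-preparation fold changes over 3 preparations. Those of the genotype comparison rest on the 3 preparations of each genotype. No column of per-sample values was left unused. The scripts were tested on simulated data.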

Additional observations from a re-analysis of the deposited data

Results flagged for a closer look

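The enrichment of an RNA in the washed pellet differed between wild type and Δmimi, by the interaction test of edgeR, for 41 RNAs that were higher in wild type and 4 that were lower. Dop2R had a log2 difference of 1.71 (SE 0.13, edgeR adjusted p = 6.51e-07), rising in all 3 wild-type preparations and standing below lysate in all 3 Δmimi preparations. salr differed by 1.73 (SE 0.16, edgeR adjusted p = 1.35e-05), Fs by 1.06 (SE 0.11, edgeR adjusted p = 5.16e-05) and GstS1 by 1.08 (SE 0.15, edgeR adjusted p = 0.00251). GIIIspla2 gave −1.04 (SE 0.14, edgeR adjusted p = 0.0017), with overlapping groups in wild type and pellet values of 73.6 to 77.1 CPM against 31.3 to 38.2 CPM in lysate in Δmimi. Cpr72Ec gave −0.89 (SE 0.12, edgeR adjusted p = 0.00234), and its lysate level was itself lower in Δmimi, 221 to 245 CPM against 695 to 1207 CPM in wild type. The genotypes were separate stocks and preparations, and a difference of genotype cannot be told apart from one of stock or preparation.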

How the results depend on the processing

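The fold changes of the named RNAs and the medians of 34 lists were recomputed under each alternative. For the named RNAs the direction and the side of the threshold were kept in 1087 recomputed values, 47 lost and 4 gained the call, and 2 reversed: GIIIspla2 to −0.020 without replicate 3 (0.19 without replicate 2) and Msp300 to −0.048 with the exon length correction. The cause was not tested. Fold changes of Msp300 (0.45), apolpp (0.50) and ry (0.47) were no longer called without replicate 1, and those of Atox1 (−0.49), Msp300 (0.48), apolpp (0.40) and cd (0.47) without replicate 2, where cl (0.57) was. With no replicate block the calls of ATPsynE, Apoltp, Argk1, Crz, Cyp6a19, Ilp2, Mlc2, Pdf, Ppn, RNaseMRP:RNA, UQCR-6.4, apolpp, cd, dpy, mt:tRNA:Tyr-GTA, ninaE, retinin and ry were lost. With the exon length correction those of 5-HT2A, Apoltp, Atox1, Crz, Dhc64C, Ilp2, Obp19a, RNaseMRP:RNA, RpL32, RpL41, apolpp, dpy, egl, retinin, ry and shot were lost, with library totals those of Msp300, apolpp and ry, with TMM over other genes only (mitochondrial, snRNA, snoRNA and rRNA genes left out) those of Msp300 and apolpp, and with DESeq2 that of mt:tRNA:Tyr-GTA.

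Against lysate, depleted RNAs numbered 389 with no replicate block, 559 with DESeq2 and 614 with the block and an exon length correction. Enriched RNAs numbered 520, 688 and 631. Of the 761 enriched and 968 depleted RNAs, 517 and 389 were also called with no block and 648 and 559 by DESeq2. With no fold threshold the counts were 1684 enriched and 1720 depleted. Of the called RNAs 44.0% were enriched in the main comparison, 57.2% with no block, 55.2% with DESeq2 and 33.8% with library totals in place of TMM, which gave 660 and 1291. Leaving out 1 preparation gave 694 to 776 enriched and 753 to 1078 depleted RNAs. After the wash, calls numbered 7 higher and 1 lower with no minimum on the mean count, and 0 to 18 higher and 0 lower when 1 preparation was left out. The genotype difference gave 0 and 0 with no block, 27 higher with library totals, 85 higher and 17 lower with no minimum, and 3 to 67 higher and 1 to 11 lower when 1 preparation was left out.

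Medians near 0 changed sign. The list named in the study gave −0.050 with library totals, −0.0078 with TMM over other genes only, −0.058 to 0.056 when 1 preparation was left out and −0.25 with the length correction, and the RNA granule protein genes −0.019 with library totals, −0.037 to 0.052 when 1 preparation was left out and −0.17 with the length correction. The length correction gave −0.065 for channels, −0.055 for receptors and −0.12 for synaptic vesicle genes. Endoplasmic reticulum genes gave −0.090 to 0.010 when 1 preparation was left out and 0.0050 with the length correction. Proteasome genes gave 0.0052 with DESeq2's size factors, 0.016 with DESeq2, 0.080 with no minimum, −0.065 to 0.10 when 1 preparation was left out and 0.17 with the length correction. V-ATPase genes gave −0.052 with library totals, −0.010 with TMM over other genes only, −0.097 with no minimum and −0.085 to 0.11 when 1 preparation was left out.

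The 3 preparations and 3635256 to 7798946 counts limit the comparison of rare RNAs: cn, with under 10 CPM everywhere, has an SE of 0.38 where Pu has 0.13.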
